A study of Mus musculus with 12 samples.

Results

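The TrkB-BAC minigene carried 7 RbFox1 eCLIP peaks when cells with doxycycline (+Dox) were compared with cells without it (No Dox), and the same libraries gave 24831 peaks on human transcripts. The 7 are every peak the authors listed on the minigene for this comparison, out of 24855 peaks in the 3 lists of the series, and each was placed among the human peaks by its log2 fold enrichment, its −log10 p and its width. The cells were the clonal line 77-5, 1 clone of T-REx-293, a human embryonic kidney line in which RbFox1 is switched on by doxycycline. Both sides of the comparison, 2 immunoprecipitated libraries +Dox and 2 No Dox, carried the WT minigene, which was made from the mouse BAC clone RP23-424E11 and is driven by a synthetic CAG promoter in place of the promoter of the gene. Doxycycline was given for 48 h at 0.5 mg/ml by the labels and methods, while the figure legends write the same number in μg/ml. Because only the induced cells received it, RbFox1 and doxycycline itself cannot be told apart. A further 2 libraries of line 32-1, whose minigene lacks Cluster 1 and Cluster 2, were used only through the list that compares them with the WT +Dox libraries, and 6 input libraries had no condition in the labels and were not used.

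RbFox1 is an RNA binding protein of neurons, heart and skeletal muscle that recognises the motif (U)GCAUG in introns of pre-mRNA and in 3′ ends of transcripts, and directs the inclusion or skipping of nearby exons. The minigene holds the part of Ntrk2 in which splicing chooses between TrkB.FL, the full receptor with its tyrosine kinase domain, and TrkB.T1, a truncated receptor with its own terminal exon. TrkB is the receptor of the neurotrophin BDNF. In eCLIP, ultraviolet light fixes a protein to the RNA it touches, an antibody pulls down the protein, and the ends and pile-up of the recovered fragments mark the site as a peak. The human transcripts of the same cells serve here as a ruler: they met the same RbFox1, antibody and libraries as the minigene transcripts. Transcript levels are not shared, however. The level of the minigene transcripts beside human ones was not analysed here, so a rank in −log10 p is not a rank of binding strength.

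The authors merged the replicates, and each list gives a peak a single −log10 p and a single enrichment. Values for single libraries and read counts were not analysed here, so the spread between replicates and the depth are unknown, and the conditions were not tested against each other. Every rank below is a description of complete lists in which peaks are not independent replicates. The level of RbFox1 itself could not be checked from the lists, which hold no expression values.

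In enrichment the minigene peaks sat in the middle and lower part of the range of the listed human peaks. That list has a floor: its lowest log2 fold enrichment was 3.000021 and its lowest −log10 p was 3.004. Every percentile given here is thus a place among peaks past this floor, and not among all bound sites. The log2 fold enrichment, on the scale of +Dox over No Dox normalised reads, ran from 3.14 to 4.13 on the minigene with a median of 3.78, while human peaks reached 6.79 with a median of 3.68. Of the 7 peaks, 5 lay above the human median, 0 above the human upper quartile of 4.14, and 2 below the lower quartile of 3.33. The span between the least and the most enriched minigene peak was 0.99, against 0.81 between the human quartiles.

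The most enriched of the 7, at 142284 to 142334, reached 4.13 on the log2 scale, or 17.5-fold, which stood at percentile 74.7 of the human list, with 6291 human peaks above it. The peaks at 122671 to 122695 (3.90) and at 142335 to 142378 (3.89) followed at percentiles 63.2 and 62.8. All 3 stayed far below the human maximum of 111-fold. The peak at 76183 to 76233, which the study's drawing of the peaks places on Cluster 2 of (T)GCATG motifs in the intron downstream of the TrkB.T1 exon, had 3.78 and stood at percentile 56.1, and that at 146091 to 146137 had 3.70 and stood at percentile 51.2. These peaks are as enriched as an ordinary peak of the whole human list, and they ranked higher against human peaks alone within 500 nt.

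The lowest values belonged to the first 2 peaks from the 5′ end. The peak at 31101 to 31115, which the same drawing places on Cluster 1 in the intron upstream of the TrkB.T1 exon, had an enrichment of 3.14 on the log2 scale, or 8.84-fold, at percentile 11.0. The value was 3.21, or 9.25-fold, for the peak at 45553 to 45584, at percentile 15.8. Only 2743 and 3935 listed human peaks, respectively, were less enriched. Both values lie close to the floor of the list, so sites with less enrichment than this are mostly not counted. A threshold of 4 on the log2 scale and 1e-05 for p was passed by 1 of the 7 minigene peaks, beside 29.0% of the human list. With 3.5 in place of 4 it was passed by 5 of the 7, beside 54.1%. The peak just outside the threshold of 4 was the one at 122671 with 3.90, and the one inside it was that at 142284 with 4.13.

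**Figure D1:**
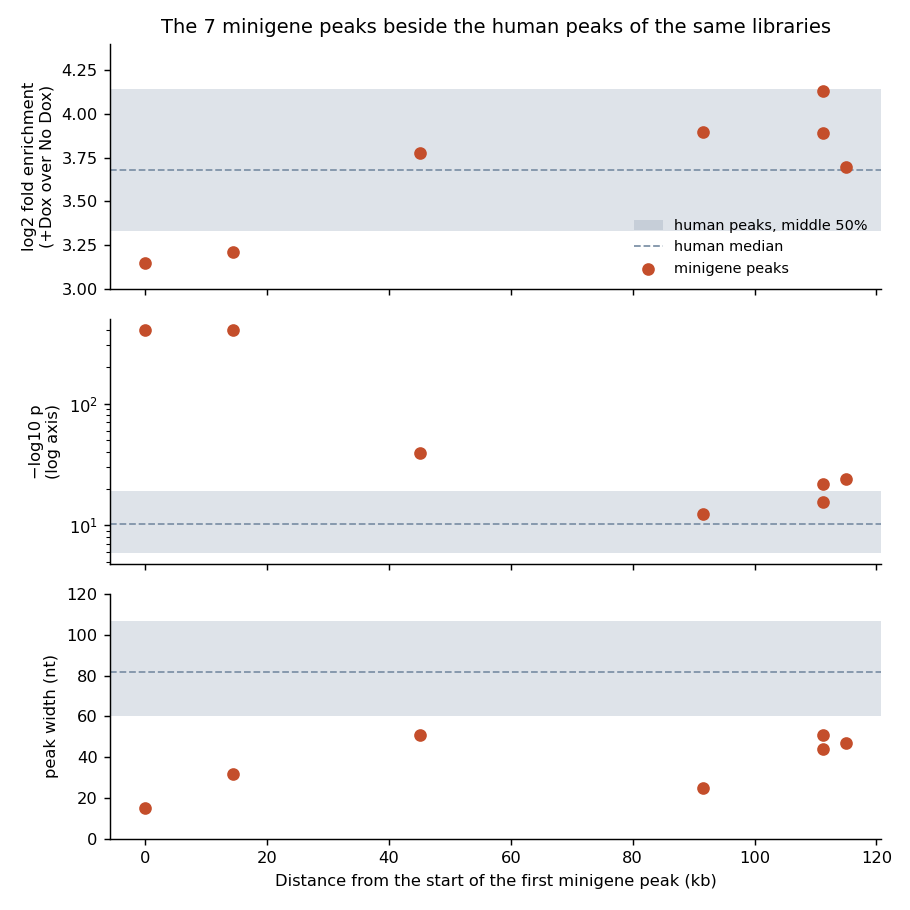
Each point is 1 of the 7 minigene peaks, placed by its distance in kb from the start of the first peak, with log2 fold enrichment, −log10 p (log axis) and width in nt from top to bottom. The dashed line is the median of the 24831 human peaks and the band their middle 50%: the first 2 peaks lie below the band in enrichment and at 400 in −log10 p, and all 7 lie below the band in width.

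In −log10 p the order was different, and all 7 minigene peaks lay above the human median of 10.2. The value was 400, the highest in the list, for the peaks at 31101 and 45553. It was 39.0 at 76183, where 2180 human peaks were higher, which is percentile 91.2. The 2 least enriched minigene peaks therefore had the strongest p-values, and the Cluster 2 peak came next.

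The 4 peaks toward the 3′ end were less extreme. The peak at 146091 had a −log10 p of 23.9 (percentile 81.3) and that at 142284 had 21.9 (percentile 78.9). The peak at 142335 had 15.6 (percentile 67.9) and that at 122671 had 12.4 (percentile 59.1). Of the 7 peaks, 5 exceeded the human upper quartile of 19.2, and the 2 that did not were among the 3 most enriched of the minigene.

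At a given enrichment a p-value gets smaller as more reads cover a peak, so each peak was also set beside the human peaks whose log2 fold enrichment was within 0.05 of its own. There were between 1059 and 1904 of these for each minigene peak. In this comparison all 7 again lay above the median −log10 p. The peak at 31101 stood at percentile 99.4 of 1895 human peaks with a median of 7.67, and 24 of them had 400 as it did. The peak at 45553 stood at percentile 99.3 of 1904 peaks with a median of 7.94. A −log10 p of 400 was rare among these human peaks, with 1.27% and 1.31% of them. It was nearly as rare in the whole human list, with 2.05%.

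The Cluster 2 peak at 76183 was at percentile 92.3 of 1459 human peaks of its enrichment, whose median was 10.3, and 112 of them reached its −log10 p or more. The peak at 146091 was at percentile 84.0 of peaks with a median of 9.68. The values were 76.7 at 142284 and 70.2 at 142335. The peak at 122671 was closest to the middle, at percentile 59.0, where the median was 10.3. Over the whole human list log2 fold enrichment and −log10 p had a Spearman's rho of 0.296 across 24831 peaks, which share libraries and depth, so a higher enrichment went with a higher −log10 p there. The first 2 minigene peaks lie off that trend.

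**Figure D2:**
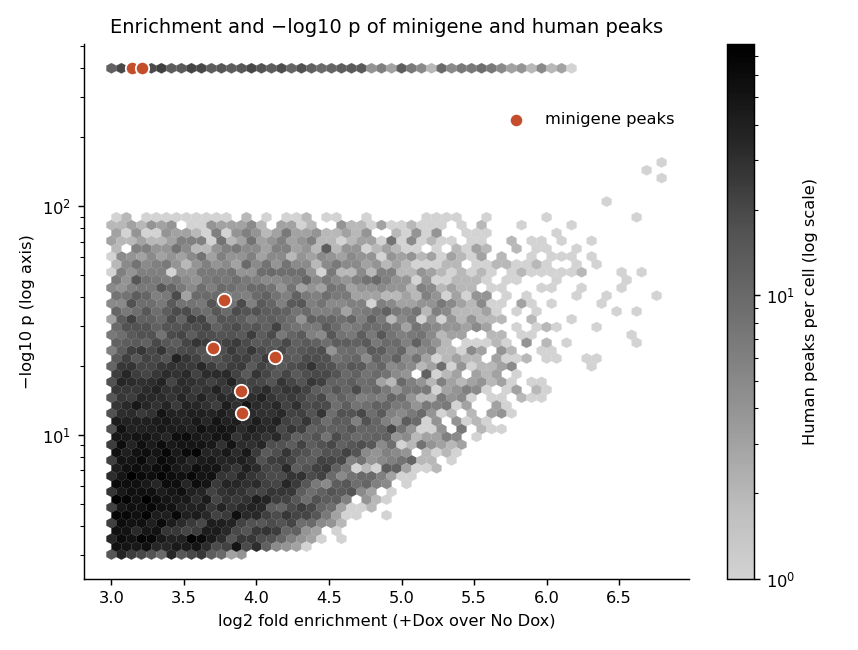
The grey cells count human peaks by log2 fold enrichment (x axis) and −log10 p (y axis, log scale), darker for more peaks, and the 7 points are the minigene peaks. The 2 points at 400 are at the low end of enrichment with 3.14 and 3.21, the other 5 lie between 3.70 and 4.13, and the space between the main cloud and 400 is nearly empty.

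The value 400 is not the end of a smooth scale. Of the human peaks, 510 had it, 4 lay over 100 and under 400, and 1583 lay from 40 to 100. The highest human −log10 p under 400 was 150 and the fifth highest 88.1. Values at 400 have no order among themselves, and how far beyond the others the peaks at 31101 and 45553 lie cannot be read from it. On the minigene 2 of 7 peaks had 400, beside 2.05% of the human list.

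Among the 510 human peaks at 400, enrichment was mostly higher than on the minigene. Their log2 fold enrichment had a median of 4.03 with quartiles of 3.49 and 4.66. The peak at 31101 stood at percentile 7.84 of them, with 40 less enriched, and that at 45553 at percentile 11.4, with 58 less enriched. The human peaks at 400 thus spread over nearly the whole range of enrichment, and both minigene peaks lie in its lowest part. Human peaks that had 400, were at most 32 nt wide and had a log2 fold enrichment of at most 3.21, the limits these 2 peaks set, numbered 23, on 6 chromosomes, which is 0.0926% of the list.

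All 7 minigene peaks were narrow. Their width ran from 15 to 51 nt with a median of 44 nt, and 0 of them reached the human lower quartile of 60 nt. The human median was 82 nt. The peaks at 76183 and 142284, both 51 nt, stood at percentile 16.1, that at 146091 (47 nt) at 12.8 and that at 142335 (44 nt) at 10.6. The other 3 were among the narrowest peaks measured in these libraries. The peak at 45553 (32 nt) stood at percentile 4.74 and that at 122671 (25 nt) at 2.54. The Cluster 1 peak at 31101, with 15 nt, stood at percentile 0.721, and 164 human peaks were narrower. In the list against the deletion, however, peaks of 22 and 41 nt touch it on its 2 sides. Its width is thus that of 1 piece of a longer run of called peaks.

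Width and −log10 p were nearly unrelated over the human list, with a Spearman's rho of 0.0450 across 24831 peaks that share libraries and depth, but the narrowest peaks were an exception. Of the 194 human peaks of 1 to 15 nt, 58 had a −log10 p of 400, or 29.9%, and their median was 40.8. The share was 8.37% of the 1028 peaks of 16 to 32 nt, 2.99% of the 2878 peaks of 33 to 51 nt and 1.16% of the 12198 peaks of 83 nt or more. On the minigene the 1 peak of at most 15 nt had 400, as did 1 of the 2 peaks of 16 to 32 nt and 0 of the 4 wider ones. The bounds of 15 and 32 nt are the widths of the minigene peaks at 400, and 51 nt is the widest minigene peak. Where the peaks at 400 fall among these classes was thus set by the bounds, and no agreement with the human order can be read from it.

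Placed among human peaks within 5 nt of its own width, the peak at 31101 was less extreme in −log10 p, at percentile 89.6 of 357 peaks, of which 74 had 400. That at 45553 stayed high, at percentile 97.8 of 1024 peaks. The peak at 122671 was below the middle, at percentile 43.8 of 682 peaks with a median −log10 p of 15.3. The other 4 stood between percentiles 69.6 and 92.3. In enrichment the same comparison changed little, from percentile 9.52 at 31101 to 74.8 at 142284. With both limits applied, no human peak among the 67 of like width and enrichment reached the −log10 p of the peak at 45553, while 5 of 17 reached that of the peak at 31101.

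**Figure D3:**
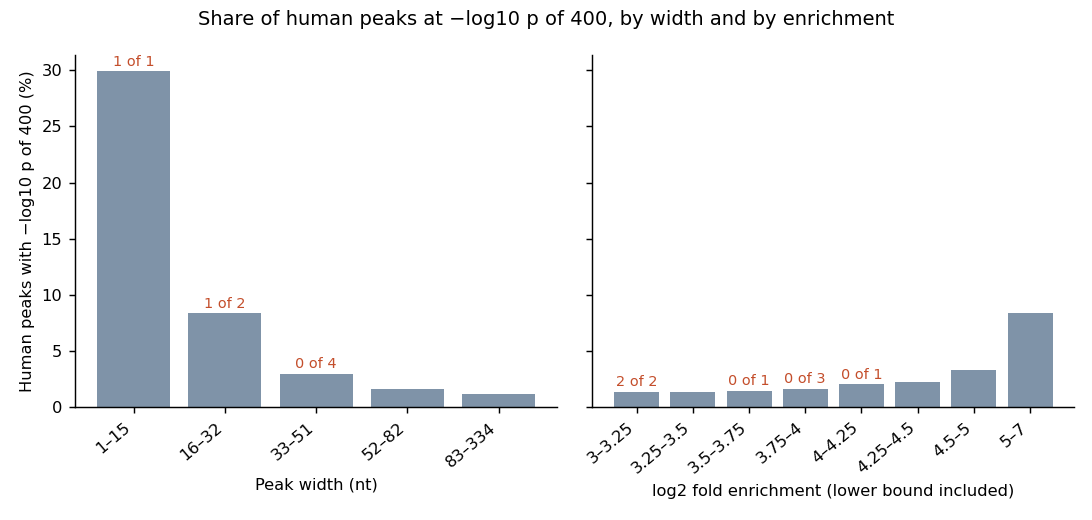
Bars give the percent of human peaks with a −log10 p of 400 in classes of width (left, in nt) and of log2 fold enrichment (right), from 0. Bounds of the narrower width classes are widths of minigene peaks, so the minigene counts there are no separate evidence. The numbers above the bars count the minigene peaks of each class that had 400: the share falls from 29.9% of the narrowest class to 1.16% of the widest, and stays under 2% in the lowest class of enrichment, which holds both minigene peaks at 400.

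Most minigene peaks stood farther from their nearest listed peak than a typical human peak did. Gaps were counted between listed peaks of the same strand, and all 7 minigene peaks were on the + strand. The 6 gaps were 14437, 30598, 46437, 19588, 0 and 3712 nt in order from the 5′ end. The human median was 108 nt over 24784 gaps, with quartiles of 1 and 22442 nt. Of the 6 minigene gaps, 5 were above that median, at percentiles 68.2 to 78.4, so they were within a range common among human gaps. Taken as the distance to the nearest listed peak, the value was 14437 nt for both of the first 2 peaks (percentile 90.6), 30598 nt at 76183 (percentile 92.7) and 19588 nt at 122671 (percentile 91.4). Within the +Dox against No Dox list these 4 peaks stand alone by more than 10 kb, which held for 2530 human peaks, 10.2% of the human list. The other 3 lie within 3712 nt of a neighbour.

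Among the listed human peaks, those that stood alone by more than 10 kb were weak. Their median log2 fold enrichment was 3.43 and their median −log10 p 5.26, and 2 of them had 400. The minigene peaks that stand alone include 2 of 4 at 400. The human pair is on + strands of hg38, at chr1:116404440-116404481 with a log2 fold enrichment of 3.16 and at chrX:24077567-24077675 with 3.23. Both thus lie as low in the list by enrichment as the minigene peaks at 31101 and 45553, and both are wider, at 42 and 109 nt. Among the isolated human peaks the enrichment of the peaks at 31101 and 45553 stood at percentiles 20.7 and 27.0, higher than in the whole list. The Cluster 2 peak at 76183 stood at percentile 99.1 in −log10 p and 75.5 in enrichment, and that at 122671 at 89.7 and 82.5.

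Most human peaks at 400 were not alone. Of the 510, 440 directly touched another listed peak with no base between them, or 86.3%, while 40.7% of all human peaks did. Of the 23 human peaks at 400 within the width and enrichment limits of the first 2 minigene peaks, 19 did. Neither minigene peak at 400 touches another peak of its list. For the peak at 31101, however, the list that sets the WT minigene against the deletion shows neighbours that touch it on both sides, at 31079 to 31100 and at 31116 to 31156, which are not listed for +Dox against No Dox. Peaks were therefore called around it in the +Dox libraries, and the distance of 14437 nt counts only those that passed the threshold of the Dox comparison. No touching neighbour is listed there for the peak at 76183, but nearby peaks that do not touch were not counted. The deletion list holds 17 peaks, of which 2 are members of the 7. The distance of 30598 nt for the peak at 76183 likewise counts only peaks of the Dox comparison.

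**Figure D4:**
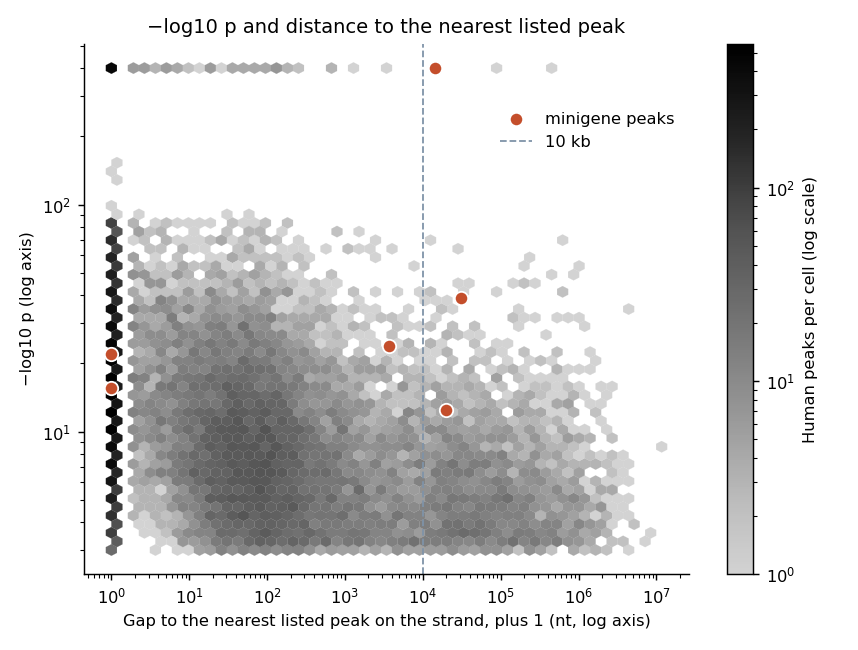
Grey cells count human peaks by the gap to the nearest listed peak on their strand (x axis, nt plus 1, log scale) and −log10 p (y axis, log scale), and the points are the 7 minigene peaks, with those at 31101 and 45553 on top of each other at 400. Right of the dashed line at 10 kb the human peaks are mostly low, and 2 of 2530 are at 400, while the 4 minigene peaks there range from 12.4 to 400.

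In the +Dox against No Dox list, the pair at 142284 and 142335 is the 1 place on the minigene where peaks touch. The first had a log2 fold enrichment of 4.13 and the second of 3.89, a difference of 0.24, and their −log10 p differed by 6.29. Among the 6068 touching human pairs the median difference was 0.35 in log2 fold enrichment and 5.52 in −log10 p, so the members of the minigene pair differed about as much as those of an ordinary human pair (percentiles 34.4 and 54.3). Together they were 95 nt wide, at percentile 15.4 of human pairs, whose median was 147 nt. The mean log2 fold enrichment of the pair, 4.01, stood at percentile 56.8.

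From the start of the first to the end of the last, the 7 peaks span 115037 nt. For each human peak, the same-strand peaks lying wholly within the same length from its start were counted. The median was 4 peaks (quartiles 2 and 9, highest 76), and 7 stood at percentile 67.5. With peaks at most 500 nt apart counted once, the minigene had 6 groups, the human median was 2, and 6 stood at percentile 97.0. The length was set by the minigene peaks themselves and is shorter than the minigene, so these ranks describe the stretch that holds the peaks and not the whole minigene. A human stretch may run past the end of a gene, whereas the minigene stretch lies within the minigene, whose TrkB.T1 form has its own terminal exon.

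There were 1369 human stretches with exactly 7 peaks, many of which share peaks with each other. Their median peak had a log2 fold enrichment of 3.69, and the 3.78 of the minigene stood at percentile 57.3. In −log10 p the minigene median of 23.9 stood at percentile 84.5. No peak at 400 was found in 1311 of the 1369, and 31 had at least 2, as the minigene did. In 3 of the 1369 all peaks were at most 51 nt wide, and the 265 nt that the 7 minigene peaks cover together stood at percentile 0.730. At least 4 gaps over 10 kb, as on the minigene, were found in 2 of them.

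**Figure D5:**
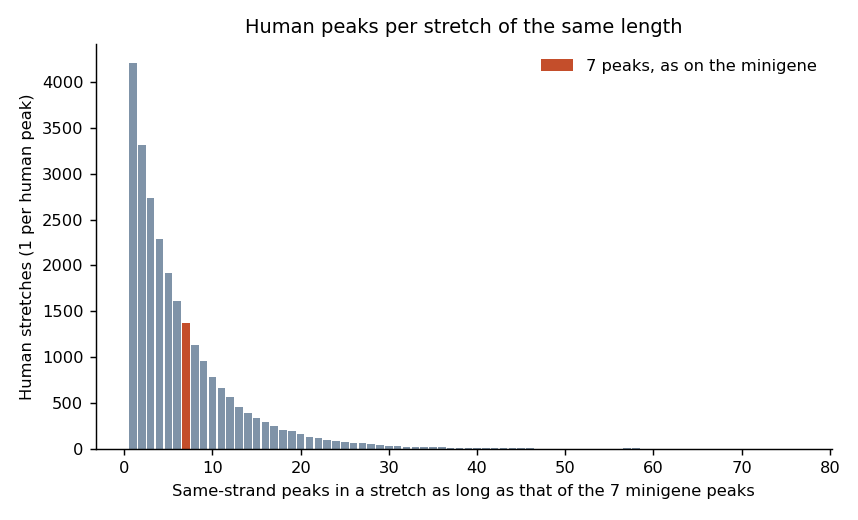
Bars count human stretches of 115037 nt, 1 starting at each human peak, by the number of same-strand peaks they hold. The coloured bar marks the 1369 stretches with 7 peaks, the number on the minigene, to the right of the median of 4.

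Taken as a sequence of its own, the minigene was set beside the 23 human chromosomes. Its median −log10 p of 23.9 was above that of all 23, which ran from 7.80 on chromosome 18 to 16.0 on chromosome 21. Its median width of 44 nt was below all 23, which ran from 75 to 87 nt. Its median log2 fold enrichment of 3.78 was also above all 23, but the distance was small. They ran from 3.60 on chromosome 22 to 3.75 on chromosome 18. The share past the threshold of 4 and 1e-05 was 14.3% on the minigene, which is 1 of 7 peaks, and 24.3% to 33.7% on the 23 chromosomes. This order depends on the threshold: with 3.5 in place of 4 the minigene had 71.4%, beside 54.1% of the human list. The share of peaks at 400 was highest on chromosome 9 among chromosomes, with 7.01%. A median or a share of 7 peaks is far less precise than that of a chromosome, and the differences were not tested.

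For each minigene peak the human peak most like it in the 3 percentiles was looked up in hg38 coordinates. For the Cluster 1 peak at 31101 it was a peak of 16 nt at chr20:63284048-63284063 on the + strand, with a log2 fold enrichment of 3.15 and a −log10 p of 400, only 0.229 percentile points away. It touches another listed peak. For the peak at 45553 it was chr19:2014848-2014880 on the − strand, with 3.21 and a −log10 p of 64.9. For the Cluster 2 peak at 76183 it was chr2:212428728-212428779 on the − strand, with 3.77 and 35.3. All 3 of these human peaks touch another peak of their list, which the 3 minigene peaks do not in the +Dox against No Dox list. For the other 4 minigene peaks the most alike human peak was between 1.31 and 3.03 percentile points away. The genes at these places were not looked up, since no human annotation was used here.

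Of the 7 peaks, 2 are also in the list that sets the WT minigene against the minigene without Cluster 1 and Cluster 2, both with doxycycline. Both lists use the same 2 WT libraries +Dox. The peak at 31101 had a log2 fold enrichment of 3.14 over No Dox and 5.96 over the deletion, and that at 76183 had 3.78 and 5.08. The deletion line lacks both clusters on which these peaks were placed, so a low read number there is set by the deletion itself. The enrichments over the deletion line, and the −log10 p of 400 that all 17 peaks of that list have, were therefore not ranked. The other 5 peaks are not in that list.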

How the data were processed

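The data are 3 lists of eCLIP peaks. Per the methods and the labels, the authors removed molecular identifiers with UMI-tools, trimmed adapters, discarded reads of human repeats and rRNA, mapped the rest with STAR to hg38 and the minigene, collapsed PCR duplicates and ran CLIPper to find peaks. The labels name the lists after IDR, the usual abbreviation of irreproducible discovery rate, a measure of how well peaks repeat between replicates, and its settings are not given in the sources used here. Each peak has a deposited log2 fold enrichment, the ratio the authors took of reads normalised to the library total, and a deposited −log10 p, for which the authors used Fisher's exact test where read numbers were small and the chi-square test with Yates' correction elsewhere.

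The lists were read with Python 3.11.15, pandas 2.3.3, numpy 2.4.6 and scipy 1.17.1, and plotted with matplotlib 3.10.9. Positions were counted from 1. Width is end minus start of the BED line. A percentile is the percent of human peaks with a lower value plus 50% of those with an equal one. The functions for ranks, gaps, groups and stretches were tested on simulated data. The members and the measures were chosen with earlier results of these data known.

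Named items were every minigene peak and the human peak nearest to each in the 3 percentiles, with the positions of 3 given. The isolated human peaks at 400 were chosen after their values were seen. Human genes with as many peaks as the minigene and the genes of the neurotrophin pathway were not analysed here, since no human annotation was used. Sequences and motifs under the peaks were not analysed here either.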

Additional observations from a re-analysis of the deposited data

How the results depend on the processing

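No paired analysis was possible because peak values analysed here come from merged replicates, and values of single libraries were not analysed here. Of 7 other versions of the lists, 6 left the counts of minigene peaks above the human median within 1.5 times in all 3 measures. These counts do not all have the same base. Without peaks at 400 the minigene list itself fell to 5 peaks, and all 5 lay above the median log2 fold enrichment. With touching peaks joined it fell to 6, of which 4 lay above. Against human peaks past the stricter threshold alone, 0 of the 7 minigene peaks lay above the median log2 fold enrichment in place of 5, and 5 in place of 7 above the median −log10 p, where the list holds no peak under a log2 of 4 or a −log10 p of 5. With a log2 fold enrichment of at least 3.5 in place of 4, 5 minigene peaks passed in place of 1, beside 54.1% of human peaks. Against the highest peak of each human group the peak at 146091 went from percentile 51.2 to 45.4 in log2 fold enrichment. Against human peaks alone within 500 nt the peaks at 31101 and 45553 went from percentiles 11.0 and 15.8 to 19.2 and 25.7 in log2 fold enrichment. The 5 peaks above the median rose further, to between 69.3 (at 146091, from 51.2) and 89.3 (at 142284, from 74.7). In −log10 p the peak at 122671 went from percentile 59.1 to 87.1 in that comparison. Joining peaks that touch, within the +Dox against No Dox lists, moved the pair at 142284 to percentile 47.0 in width. The peak at 31101 had no touching neighbour in that list to be joined with. The count of peaks shared with the deletion list stayed at 2 with an overlap of 50%, and all 7 stayed above the median −log10 p of human peaks of like enrichment with limits of 0.02 and 0.1. The alternatives for replicates were not run. Depth is unknown, so an unlisted peak may be one with few reads.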
